A study of Mus musculus with 9 samples.

Results

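Caspases are proteases that cut other proteins during programmed cell death. In the death receptor pathway, ligands such as TNF and Fas ligand cluster receptors at the cell surface, and the adaptor Fadd then recruits the initiator caspase Casp8, while Cflar, a relative of Casp8 without protease activity, competes for the same platform. Active Casp8 cleaves effector caspases and Bid, a BCL2 family protein that carries the signal to mitochondria. Downstream of mitochondria, Apaf1 activates the initiator Casp9. The genes described here are 8 listed members of this machinery: Casp8, Fadd, Cflar, Ripk1, Casp2, Casp9, Casp6 and Bid. Of these, 7 had a probe set with a single gene symbol, out of 19938 genes measured, and Ripk1 was not analysed here.

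Total RNA of the mouse embryonic stem cell line R1E was measured on 9 Affymetrix arrays, 3 in each of 3 groups. Lentivirus had delivered the short hairpin RNA shApela #2, a second hairpin named shApela #1, or the control hairpin shLuc against luciferase, which mouse cells lack. Both Apela hairpins were made against Apela, which encodes a short peptide ligand of the apelin receptor and whose RNA the title of the series places in p53-driven apoptosis. No group received a drug, and all were kept in leukemia inhibitory factor (1000 units/ml) and 15% fetal bovine serum. The hairpin sequences, the time after transduction, and whether the cells were pools or clones were not stated. Nor was it stated that the 3 repeats per group came from separate cultures, so any p-value reflects the spread among these samples alone and that spread may be technical.

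The members were selected on their log2 levels and differences in all 3 groups, and Casp8 was picked because its level moved in opposite directions with the 2 Apela hairpins. Member values are therefore descriptions, and no p-value of a member is given or read as a test. All levels are log2 values after RMA, an array normalization that sums up the probes of a probe set. A difference of 1 is a doubling, and each difference carries the standard error (SE) of 1 limma fit over all genes.

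Apela itself averaged 9.72 ± 0.14 in shApela #2, 9.70 ± 0.06 in shApela #1 and 11.30 ± 0.10 in shLuc (SD, n = 3 each), so both hairpins left its signal lower by nearly the same amount (differences from shLuc of -1.58 and -1.60, limma adjusted p = 0.000219 and 0.000197). The third shApela #2 array stood apart: its median was 7.12, where those of the other 8 lay between 7.03 and 7.07, and its correlation with any other array did not exceed 0.995, while the other 8 arrays correlated with each other at 0.996 or more. The cells carried embryonic stem cell markers in every group, with Pou5f1 at 12.08, 12.01 and 12.07 and Nanog at 12.30, 12.33 and 12.28 in shApela #2, shApela #1 and shLuc. Among 62 marker genes of stem cells, feeder fibroblasts, endoderm, trophectoderm, mesoderm and neuroectoderm, 0 passed the limma test in any comparison. At an unadjusted limma p under 0.05 there were 3 with shApela #2, 11 with shApela #1 and 5 between the hairpins. Of all genes, 5.77%, 7.69% and 12.9% lay under it in the same comparisons. The share of markers was above that of all genes with shApela #1 and below it in the other comparisons. The summed level of the 10 neuroectoderm markers lay between 11.68 and 11.77 in shApela #2, 11.75 and 11.95 in shApela #1, and 11.58 and 11.74 in shLuc, and that of the 13 stem cell markers between 15.35 and 15.41, 15.33 and 15.36, and 15.37 and 15.38 in the same groups. On both lists shApela #1 and shLuc did not overlap, while on the lists of feeder fibroblasts, endoderm, trophectoderm and mesoderm they did. The part of the separated lists in the differences of shApela #1 was not tested. In bulk RNA, fewer cells of a type and less RNA per cell cannot be told apart.

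Casp8, the initiator protease of death receptors, had the widest spread between groups among the 7 members. On the arrays numbered 1, 2 and 3 it measured 6.23, 6.36 and 6.09 in shApela #2, 7.18, 6.95 and 7.31 in shApela #1, and 6.56, 6.69 and 6.48 in shLuc. The 3 groups did not overlap: every shApela #1 array lay above every shLuc array, and every shApela #2 array lay below. Group means were 6.23 ± 0.13, 7.15 ± 0.18 and 6.57 ± 0.10 (SD, n = 3 each). The difference from shLuc was -0.35 (SE 0.10) with shApela #2 and 0.58 (SE 0.10) with shApela #1, a level 1.27-fold lower and 1.49-fold higher. Between the hairpins the difference was -0.92 (SE 0.10), so that shApela #2 held 52.7% of the shApela #1 signal. Apela differed between the same hairpins by 0.02 (SE 0.08).

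**Figure D1:**
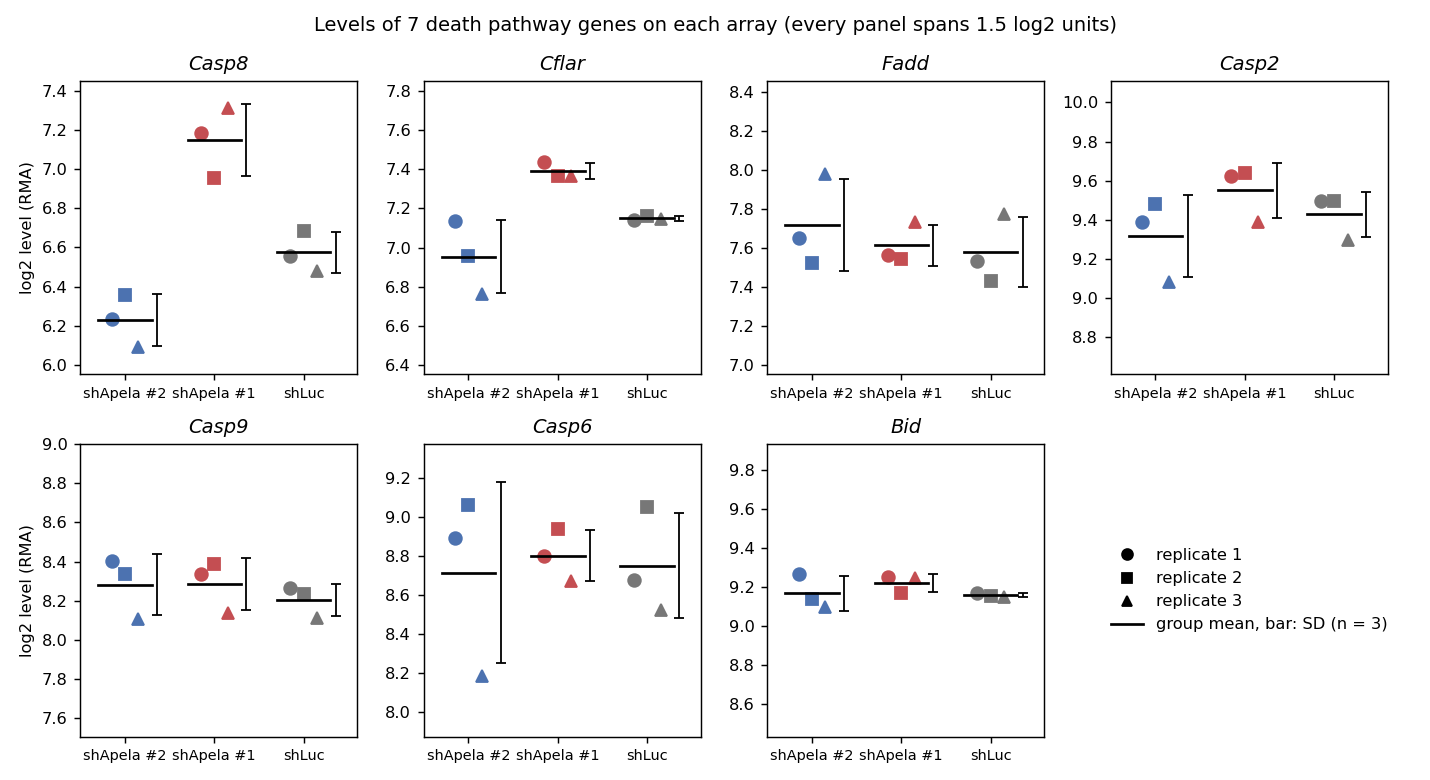
Log2 level of the 7 measured members (vertical axis, RMA values, each panel 1.5 units high) on every array of shApela #2, shApela #1 and shLuc. Symbols give the replicate number, lines the group mean and bars the SD of 3 arrays. Casp8 and Cflar form 3 levels without overlap, while the groups of the other 5 genes overlap.

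Because the groups did not overlap, every pair of arrays with equal numbers had to show the same direction for Casp8, so the pairs show sizes only. The shApela #2 arrays lay below the shLuc arrays of the same number by -0.32, -0.33 and -0.39, and the shApela #1 arrays lay above them by 0.63, 0.27 and 0.83. Without the third shApela #2 array, the mean of shApela #2 was 6.30, with differences of -0.28 from shLuc and -0.85 from shApela #1. The Casp8 probe set was dim: its mean over all arrays, 6.65, lay below the median of all probe sets, 7.06. It was the 1 probe set of this gene. Scanner background was not used here, and how near this level lies to background was not tested.

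Cflar, the catalytically inactive homologue that can restrain Casp8, showed the same order of groups with smaller differences. Its brightest probe set measured 7.14, 6.96 and 6.76 in shApela #2, 7.44, 7.37 and 7.37 in shApela #1, and 7.14, 7.16 and 7.14 in shLuc. The shApela #1 arrays lay apart from all others, while the first shApela #2 array lay just below the lowest shLuc array. The means were 6.95 ± 0.19, 7.39 ± 0.04 and 7.15 ± 0.01 (SD, n = 3 each). The differences were -0.20 (SE 0.08) between shApela #2 and shLuc, 0.24 (SE 0.08) between shApela #1 and shLuc, and -0.44 (SE 0.08) between the hairpins. Without the third shApela #2 array, the difference from shLuc was -0.10 and that from shApela #1 was -0.35.

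The other probe sets of Cflar were dimmer and separated the groups less. The second measured 6.08, 6.09 and 5.76 in shApela #2, 6.22, 6.10 and 6.09 in shApela #1, and 6.09, 6.01 and 6.07 in shLuc, so that its shApela #1 arrays lay above the shLuc arrays by little. The third, the dimmest, measured 5.65, 5.65 and 5.64 in shApela #2, 5.65, 5.76 and 5.65 in shApela #1, and 5.48, 5.62 and 5.62 in shLuc, with the same value of 5.65 on 4 arrays. With the mean of the 3 probe sets, the differences shrank to -0.07 with shApela #2, 0.15 with shApela #1 and -0.21 between the hairpins. RefSeq lists Gm9845, the name of a pseudogene on chromosome 3 (GRCm38.p6, chr3:39357375-39359128), among the synonyms of Cflar. Whether the brightest probe set also reads that pseudogene was not tested.

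Of the 19938 genes, 110 (0.552%) showed the order of shApela #1 above shLuc above shApela #2 without overlap, and 2 of the 7 members, Casp8 and Cflar, were among them. In this order or its reverse, 0.762% of genes had 3 groups without overlap. Orders with shLuc highest or lowest were not counted. Taken by comparison, both members lay wholly below shLuc with shApela #2, where 10.3% of all genes did not overlap (5.68% higher and 4.65% lower), and wholly above it with shApela #1 (13.7%, with 8.05% higher and 5.61% lower). Between the hairpins both lay lower, beside 17.6% of all genes (7.49% higher and 10.1% lower). The choice of members used these values, so the counts are a description. Over the 9 arrays the levels of Casp8 and Cflar had a Pearson correlation of 0.90. Deviations of the same arrays from their group means had a correlation of 0.34.

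Casp8 and Cflar are neighbours in the genome. RefSeq (GRCm38.p6) places Cflar at chr1:58711311-58758884 and Casp8 at chr1:58795233-58847503, with a gap of 36.3 kb that holds 1 predicted gene, Gm39646. Within 500 kb of Casp8, 15 other genes were measured, and limma called 0 of them in any of the 3 comparisons. At an unadjusted limma p under 0.05 there were 0 with shApela #2 and 0 with shApela #1, beside 5.77% and 7.69% of all genes. Between the hairpins there were 3 (Fam126b, Trak2 and Stradb, all lower with shApela #2), beside 12.9%. With shApela #2, 6 of the 15 differences from shLuc were above 0, and with shApela #1 12 were, beside 57.5% and 54.5% of all genes. The differences of the 15 genes from shLuc lay between -0.18 and 0.12 with shApela #2 and between -0.14 and 0.20 with shApela #1. Between the hairpins they spread wider, between -0.38 (Fam126b, limma adjusted p = 0.365) and 0.12, so that the lowest came near the -0.44 of Cflar. Trak2, which couples mitochondria to motor proteins and is the next measured gene beyond Casp8, measured 9.02, 9.38 and 9.19 in shApela #2, shApela #1 and shLuc (differences from shLuc of -0.16 and 0.19, limma adjusted p = 0.694 and 0.944, and -0.36 between the hairpins, adjusted p = 0.297). This window was chosen after the member values were seen.

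**Figure D2:**
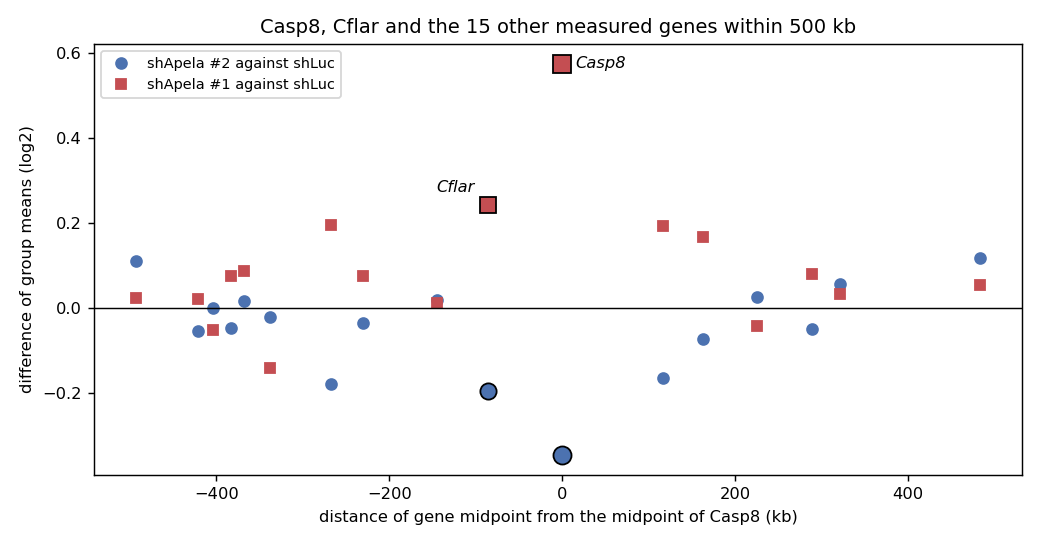
Difference of group means in log2 units (vertical axis) against the distance of each gene's midpoint from that of Casp8 in kb (horizontal axis), for shApela #2 against shLuc (circles, 15 genes between -0.18 and 0.12) and shApela #1 against shLuc (squares, between -0.14 and 0.20). Casp8 and the brightest Cflar probe set, outlined in black, lie outside these ranges, but Cflar lies inside them with the mean of its probe sets (-0.07 and 0.15), and inside the first without the third shApela #2 array (-0.10).

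The promoter windows of Casp8 and Cflar had a lower share of G and C than those of the other 5 measured members, and Casp8 had the fewest CpGs of the 7. RefSeq windows of 300 bases, from 250 before to 50 after an annotated start, are shown for both, with Casp9 as the member richest in CpG among the 7 measured. Each is written in the direction of transcription, on the + strand of GRCm38.p6, with every CpG in capitals.
Casp8, chr1:58802252-58802551: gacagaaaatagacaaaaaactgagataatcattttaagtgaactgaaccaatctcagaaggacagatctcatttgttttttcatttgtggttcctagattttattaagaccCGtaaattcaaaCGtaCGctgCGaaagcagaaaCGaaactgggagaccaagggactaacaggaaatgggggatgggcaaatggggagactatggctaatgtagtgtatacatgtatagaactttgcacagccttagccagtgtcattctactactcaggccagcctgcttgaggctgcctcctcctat
Cflar, chr1:58711241-58711540: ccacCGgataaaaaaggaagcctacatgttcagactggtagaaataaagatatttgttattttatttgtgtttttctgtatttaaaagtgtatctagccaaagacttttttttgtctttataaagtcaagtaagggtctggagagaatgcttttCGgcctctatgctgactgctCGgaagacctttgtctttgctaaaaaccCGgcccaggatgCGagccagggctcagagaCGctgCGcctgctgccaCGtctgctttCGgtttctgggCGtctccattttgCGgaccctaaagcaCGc
Casp9, chr4:141793362-141793661: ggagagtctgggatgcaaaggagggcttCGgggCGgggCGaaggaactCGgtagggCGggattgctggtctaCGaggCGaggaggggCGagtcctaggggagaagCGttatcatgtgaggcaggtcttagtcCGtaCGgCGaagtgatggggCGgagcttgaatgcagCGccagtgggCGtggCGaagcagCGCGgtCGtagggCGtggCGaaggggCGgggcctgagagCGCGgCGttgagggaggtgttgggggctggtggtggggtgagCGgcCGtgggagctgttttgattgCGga
The Casp8 window held 5 CpGs at 42% G and C, and that of Cflar 12 at 45%. The other 5 measured members held between 16 (Casp6) and 28 (Casp9) CpGs at 60.3% to 66% G and C, where the median of 32851 RefSeq promoter windows was 7 CpGs at 52.7%. The Casp8 start site of this window lies 7.27 kb inside the annotated gene, so windows of its other starts are not covered.

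Short motifs were searched on both strands of the windows. The GC box core GGGCGG, found in 35.7% of all windows, was present in the 5 other measured members and in neither Casp8 nor Cflar. The Cflar window held the TATA box core TATAAA on each strand (13.6% of all windows) and the core of the interferon-stimulated response element (3.44%). The NF-kB consensus (0.155%) was in none of the 7 windows. The STAT palindrome TTCNNNGAA (8.3%) was in none of the 7 windows. A match describes the letters and is not evidence of binding.

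Fadd, the adaptor that links receptors to Casp8, did not separate the groups. It measured 7.65, 7.52 and 7.98 in shApela #2, 7.56, 7.55 and 7.73 in shApela #1, and 7.53, 7.43 and 7.78 in shLuc. In all 3 groups the third array was the highest and the ranges overlapped. The difference from shLuc was 0.14 (SE 0.13) with shApela #2 and 0.03 (SE 0.13) with shApela #1. Without the third shApela #2 array the first of these was 0.01.

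Casp2, an initiator caspase activated on a scaffold that contains Pidd1, had its hairpin means on either side of shLuc. It measured 9.39, 9.48 and 9.08 in shApela #2, 9.62, 9.64 and 9.39 in shApela #1, and 9.49, 9.49 and 9.30 in shLuc. The groups overlapped, and the third array was the lowest of each. The difference from shLuc was -0.11 (SE 0.11) with shApela #2 and 0.12 (SE 0.11) with shApela #1, and that between the hairpins was -0.23 (SE 0.11). Without the third shApela #2 array, shApela #2 differed from shLuc by 0.01 and from shApela #1 by -0.12. Between arrays of the same number, shApela #2 differed from shLuc by -0.10, -0.02 and -0.22. For shApela #1 against shLuc the differences were 0.13, 0.15 and 0.09, and between the hairpins -0.23, -0.16 and -0.31. Each comparison had 1 sign, but the labels state no pairing and the share of all genes that do so was not computed. Against shLuc, Fadd also had 1 sign with shApela #2 (0.11, 0.09 and 0.20). Casp9 (0.07, 0.15 and 0.02) and Bid (0.08, 0.02 and 0.10) did with shApela #1.

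Casp9, the initiator of the mitochondrial route, measured 8.40, 8.34 and 8.10 in shApela #2, 8.34, 8.39 and 8.14 in shApela #1, and 8.27, 8.23 and 8.11 in shLuc. The ranges overlapped, again with the third array lowest in each group. The differences from shLuc were 0.08 (SE 0.09) with shApela #2 and 0.08 (SE 0.09) with shApela #1. Casp6, an effector caspase known for cutting nuclear lamins, had the largest SE of the 7. It measured 8.89, 9.06 and 8.19 in shApela #2, 8.80, 8.94 and 8.67 in shApela #1, and 8.68, 9.05 and 8.53 in shLuc, and the ranges overlapped throughout. Its differences from shLuc were -0.04 (SE 0.22) and 0.05 (SE 0.22), and the first became 0.23 without the third shApela #2 array. Bid, the substrate of Casp8 that links both routes, had the smallest SE of the 7. It measured 9.27, 9.14 and 9.10 in shApela #2, 9.25, 9.17 and 9.25 in shApela #1, and 9.17, 9.15 and 9.15 in shLuc. Its differences from shLuc were 0.01 (SE 0.05) and 0.06 (SE 0.05).

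**Figure D3:**
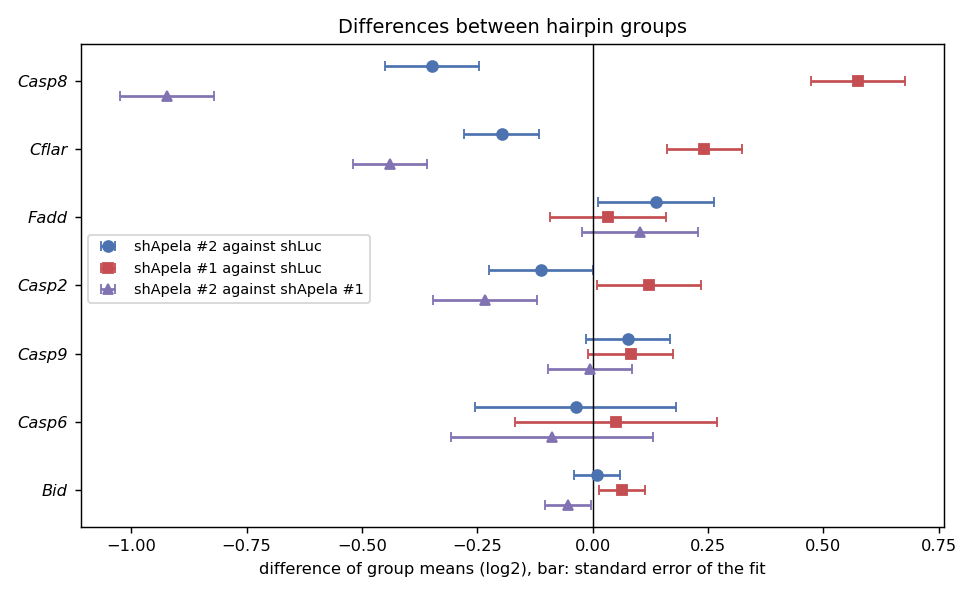
Difference of group means in log2 units (horizontal axis) for each measured member in the 3 comparisons, with bars of 1 standard error of the limma fit over all genes. Casp8 and Cflar lie below 0 with shApela #2, above 0 with shApela #1 and lowest between the hairpins (-0.92 and -0.44), while the other members lie between -0.23 and 0.14.

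The choice of members used all 3 comparisons, so the counts of members in the fit over all genes describe that choice and test nothing. At an adjusted p under 0.05, 0 of the 7 were past the limma threshold with shApela #2 (0.015% of all genes) and 0 with shApela #1 (0.336% of all genes). At an unadjusted p under 0.05 there were 2 in each, beside 5.77% and 7.69% of all genes. Between the hairpins 2 members, Casp8 and Cflar, were past the adjusted threshold on the lower side, beside 0.592% of all genes on that side and 0.356% on the other. Cflar lay close to that threshold, and its difference of -0.44 shrank to -0.21 with the mean of its probe sets. With shApela #2, 3 of 7 member differences were above 0, beside 57.5% of all genes, and their median was -0.04 against 0.02 over all genes. With shApela #1 all 7 were above 0, beside 54.5% of all genes, with a median of 0.08 against 0.01.

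Part of the spread within groups went with the replicate number. Casp2, Casp9 and Casp6 had their lowest value on the third array of all 3 groups, and Fadd had its highest there. Of all genes, 10.1% had the third array lowest in every group and 12.1% had it highest, 22.2% together, and 4 of the 7 members did. Deviations from the group means had a correlation of -0.96 between Casp2 and Fadd, -0.95 between Casp6 and Fadd and 0.94 between Casp2 and Casp9 over the 9 arrays, which share their replicate numbers. For Casp8 the same correlations were 0.22 with Casp2, 0.46 with Casp6 and -0.41 with Fadd, and the third array was its highest in shApela #1 and its lowest in shApela #2 and shLuc.

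**Figure D4:**
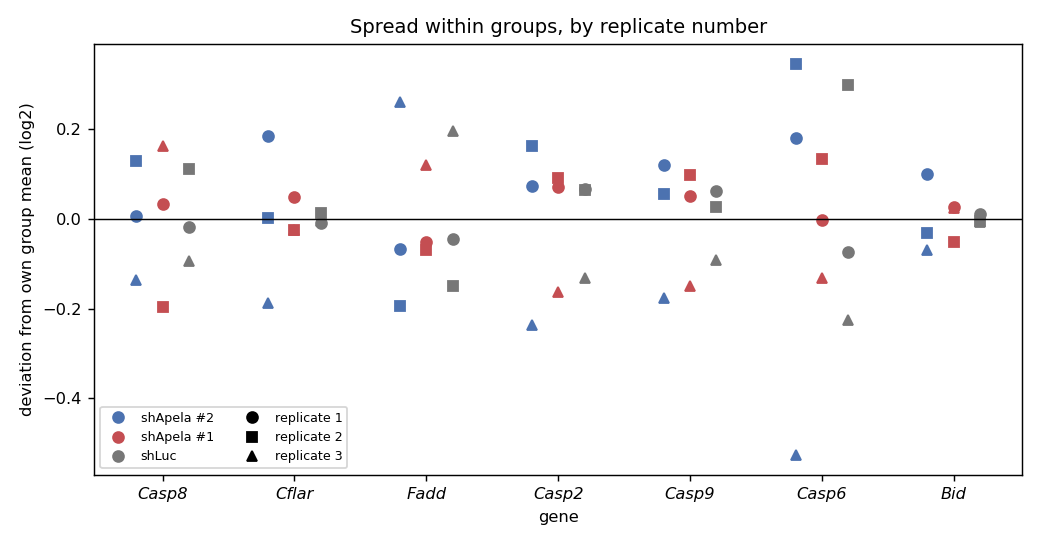
Deviation of each array from the mean of its own group in log2 units (vertical axis) for the 7 measured members, coloured by group with a symbol for the replicate number. The triangles of replicate 3 lie below 0 in all groups for Casp2, Casp9 and Casp6 and above 0 for Fadd, and they lie on both sides for Casp8.

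The genes around the members were described from 9 lists of death ligands, receptors, adaptors, regulators and substrates, of which 130 genes of 142 were measured. Tab2, an adaptor that couples ubiquitin chains to the kinase Map3k7 downstream of TNF receptors, was the 1 gene that passed the test. It fell with shApela #1. The arrays measured 10.84, 10.74 and 10.70 in shApela #2, 10.48, 10.43 and 10.50 in shApela #1, and 10.76, 10.80 and 10.81 in shLuc. All shApela #1 arrays lay below all others. The difference from shLuc was -0.32 with shApela #1 (SE 0.05, limma adjusted p = 0.0385) and -0.03 with shApela #2 (SE 0.05, adjusted p = 0.811), and shApela #2 exceeded shApela #1 by 0.29 (adjusted p = 0.0287). The shApela #1 call ended with array medians set equal (adjusted p = 0.087) and without any 1 array other than the first or the third of shApela #2 (adjusted p from 0.0704 to 0.21). The call between the hairpins ended with equal medians (0.0871), with only those groups in the fit (0.135) and without any 1 array but the third of shApela #2 (0.0542 to 0.135).

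Tab2 made up 1 of 130 genes with shApela #1, where 0.336% of all genes were called, and 1 of 130 between the hairpins, where 0.948% were. With shApela #2, 0 of the 130 passed. At an unadjusted limma p under 0.05 there were 5 of the 130 with shApela #2, beside 5.77% of all genes. There were 15 with shApela #1, beside 7.69%, and 25 between the hairpins, beside 12.9%. The median difference from shLuc was 0.00 with shApela #2 and 0.00 with shApela #1, beside 0.02 and 0.01 over all genes. With the replicate number as a block, 3 genes passed with shApela #1 and 5 between the hairpins. Besides Tab2 and chosen after their values were seen, these were the keratin Krt18 (-0.46, adjusted p = 0.0308) and the cell cycle repressor Rb1 (-0.48, adjusted p = 0.0328) with shApela #1. Between the hairpins they were the DNA sensor Aim2 (-0.37, adjusted p = 0.0168), Spata2, which recruits a deubiquitinase to TNF receptor complexes (-0.24, adjusted p = 0.0263), the death domain receptor Tnfrsf21 (-0.23, adjusted p = 0.0463) and the filament protein Vim (-0.25, adjusted p = 0.0447).

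**Figure D5:**
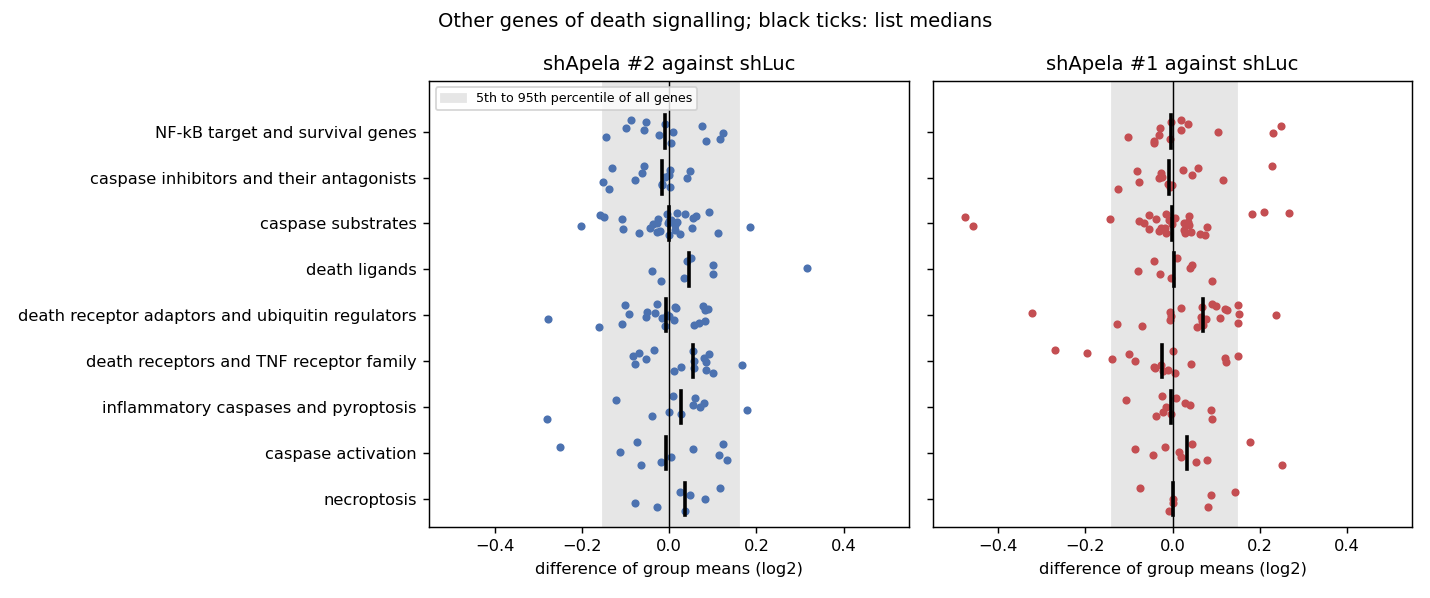
Difference of group means in log2 units (horizontal axis) for the 130 measured genes of the 9 lists, for shApela #2 against shLuc (left) and shApela #1 against shLuc (right). Black ticks mark list medians, which lie between -0.02 and 0.07, and the grey band spans the 5th to 95th percentile of all genes.

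Upstream of Casp8 stand the ligands and receptors. Of the 8 measured death ligands 0 passed in any comparison of the main fit. Tnf, the founding ligand of the family, averaged 5.88 ± 0.20 in shApela #2, 5.61 ± 0.06 in shApela #1 and 5.57 ± 0.11 in shLuc (difference of shApela #2 from shLuc 0.32, limma adjusted p = 0.68), at a low signal on all arrays. Eda, a ligand of skin appendage development, differed by -0.02 and 0.09 (adjusted p = 0.891 and 0.788). Of the 16 receptors 0 passed in the main fit, and Tnfrsf21 passed between the hairpins with the replicate block. Tnfrsf23, a mouse decoy receptor, differed from shLuc by -0.07 with shApela #2 and -0.20 with shApela #1 (limma adjusted p = 0.682 and 0.191), and Unc5b, a netrin receptor with a death domain, by -0.03 and -0.27 (adjusted p = 0.873 and 0.237).

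Among 22 adaptors and ubiquitin regulators, the list of Tab2, the median difference from shLuc was -0.01 with shApela #2 and 0.07 with shApela #1. With shApela #2, 0 of the 22 lay wholly above shLuc and 2 wholly below, beside 5.68% and 4.65% of all genes. With shApela #1, 9 lay wholly above and 2 wholly below, beside 8.05% and 5.61%. This list was singled out after its values were seen. Of the 16 receptors, 1 lay wholly above and 0 below with shApela #2, and 0 above and 3 below with shApela #1. Between the hairpins, 6 receptors lay wholly higher with shApela #2 and 1 lower, beside 7.49% and 10.1% of all genes. Among the 22 adaptors and regulators 1 lay wholly higher and 6 lower. At an unadjusted limma p under 0.05 there were 6 receptors and 6 adaptors and regulators, beside 12.9%. These counts were also chosen after the values were seen.

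The remaining lists held 0 genes past the test in any comparison of the main fit. Which lists held the further genes called with array weights or with dim genes left out is not given here. In the list of caspase activation (10 genes) Pidd1, the scaffold that activates Casp2, measured 8.20 ± 0.12, 8.45 ± 0.08 and 8.28 ± 0.05 in shApela #2, shApela #1 and shLuc, with differences from shLuc of -0.07 and 0.18 (limma adjusted p = 0.718 and 0.522). Card10, a scaffold of NF-kB signalling, differed by 0.13 and 0.08 (adjusted p = 0.68 and 1). Among 14 caspase inhibitors and their antagonists, the mitochondrial protease Htra2 differed by -0.08 and 0.12 (adjusted p = 0.68 and 0.667) and Diablo, which relieves caspase inhibition, by -0.15 and -0.08 (adjusted p = 0.68 and 1). Among 29 caspase substrates, Xkr8, which exposes phosphatidylserine after cleavage, differed by 0.09 and 0.21 (adjusted p = 0.68 and 0.183), and Vim by 0.02 and 0.27 (adjusted p = 0.93 and 0.197).

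In the main fit, routes of inflammatory and necrotic death held 0 genes past the test. Among 11 genes of inflammatory caspases and pyroptosis, the pore protein Gsdmd differed by 0.18 with shApela #2 and 0.09 with shApela #1 (limma adjusted p = 0.68 and 0.892), and Aim2, which passed between the hairpins with the block, by -0.28 and 0.09 (adjusted p = 0.68 and 1). Among 7 necroptosis genes, the nucleic acid sensor Zbp1 differed by 0.12 and -0.08 (adjusted p = 0.68 and 1) and the adaptor Ticam1 by 0.02 and 0.14 (adjusted p = 0.927 and 0.876). Among 13 genes of NF-kB and its targets, the inhibitor Nfkbib differed by 0.01 and 0.11 (adjusted p = 0.942 and 0.45) and the chemokine Cxcl1 by 0.12 and -0.01 (adjusted p = 0.68 and 1).

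The genes whose levels were most like those of Casp8 were sought by Pearson correlation over the 9 arrays. The search covered 9626 genes brighter than the median, with predicted genes, Rik clones and small RNAs left out. The 5 most alike were Fam171b (0.96), Miip (0.96), Ebag9 (0.96), Coq8b (0.95) and Celf1 (0.95), and the 5 most opposed were Sec14l4 (-0.96), Glis3 (-0.95), Mpc1 (-0.94), Tmed7 (-0.94) and Celf4 (-0.94). Deviations from the group means correlated less with those of Casp8. They lay between 0.44 (Celf1) and 0.78 (Ebag9) for the genes most alike, and between -0.77 (Sec14l4) and 0.03 (Celf4) for those most opposed. Fam171b averaged 7.67, 8.44 and 8.03 in shApela #2, shApela #1 and shLuc. Glis3, a zinc finger transcription factor, averaged 7.78, 7.32 and 7.59. The arrays share their group and replicate number, so these correlations are a description, and none of the 10 genes is one of the 130 pathway genes.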

How the data were processed

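The authors deposited 1 normalized log2 value per probe set and array, made with Partek 6.6 and RMA per the submitters' processing notes. Base 2 was inferred from the span of those values. Precision is limited by having 3 arrays a group. Of 28853 probe sets, 21775 had 1 gene symbol, 1578 several and 5500 none, and the brightest probe set stood for each of 19938 genes. Coordinates and promoters are RefSeq's (GRCm38.p6). One limma model (limma 3.58.1, R 4.3.3) was fitted to all 9 arrays with 3 group means, 6 residual degrees of freedom and Benjamini-Hochberg adjustment over all genes at 0.05, after it was tested on simulated data. The brightness of a probe set also depends on its probes, so levels of different probe sets are not amounts of RNA relative to each other.

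The members and the gene lists were chosen with earlier results of these data known. Named pathway genes were all those past the threshold and, in lists without one, the 2 with the smallest unadjusted p against shLuc. Of the 142 listed genes, 12 were not analysed here. Correlations of same-numbered arrays, as deviations from group means, were 0.44, 0.40 and 0.68 for shApela #1 with shLuc, 0.18, 0.21 and 0.21 for shApela #2 with shApela #1, and -0.01, 0.67 and 0.47 for shApela #2 with shLuc. In the first 2 sets every correlation was above 0, but arrays of different numbers were not compared in this way. The labels do not state a pairing, and whether the numbers mark pairs was not tested. Alternatives were a threshold of 0.01, a trended robust prior, dim genes left out, a second quantile normalization, equal array medians, array weights, the replicate block, only the compared groups, the mean of probe sets, and each array left out.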

Additional observations from a re-analysis of the deposited data

Results flagged for a closer look

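Tab2 was 0.29 higher on the log2 scale in shApela #2 than in shApela #1, a test of the difference between the hairpins' effects (limma adjusted p = 0.0287, 3 of 3 shApela #2 arrays above all 3 shApela #1 arrays). Of all genes, 7.49% lay wholly higher in this comparison. The Tab2 call was lost under 10 alternatives (limma adjusted p from 0.0542 to 0.135). Casp8 (-0.92) and Cflar (-0.44) had every shApela #2 array below the shLuc mean and every shApela #1 array above it. For these genes the difference is a description, with no test of their own, because they were chosen with it known.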

How the results depend on the processing

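Under the 14 alternatives computed for Casp8, its difference lay between -0.41 and -0.28 for shApela #2 against shLuc. It lay between 0.49 and 0.67 for shApela #1 against shLuc, and between -1.02 and -0.78 between the hairpins. The mean of probe sets, the replicate block and leaving out an array of the group not compared had to return the main values. Leaving out any other array could not change a sign, because the groups did not overlap. The ranges thus describe the size of the differences and do not test their direction. Counts over all genes moved much more. With shApela #2 the count of 3 became 7 with a second quantile normalization, 23 with array weights and 8 with the replicate block, and 2 to 6 without 1 array. With shApela #1 the count of 67 became 7 at 0.01, 37 with a trended robust prior, 31 with equal medians, 688 with array weights, 190 with the replicate block and 44 with only the compared groups, and 3 to 146 without 1 array. Between the hairpins 189 became 27 at 0.01, 1446 with array weights, 653 with the replicate block and 28 with only the compared groups, and 19 to 222 without 1 array. Of the 130 pathway genes, the 1 called with shApela #1 became 0 at 0.01, 0 with equal medians, 8 with array weights and 3 with the replicate block, and 0 to 2 without 1 array. The 1 called between the hairpins became 0 at 0.01, 2 with dim genes left out, 15 with array weights, 5 with the replicate block and 0 with only the compared groups, and 0 to 3 without 1 array. With equal medians the count stayed at 1, but the gene called was lower with shApela #2 and was not Tab2. With shApela #2, 0 were called under each alternative. The split of higher and lower calls moved with the scaling: 28 and 39 with shApela #1 became 29 and 70 with a second quantile normalization and 10 and 21 with equal medians, and 71 and 118 between the hairpins became 134 and 120, and 38 and 125. The cause was not tested.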
